A study of Drosophila melanogaster with 7 samples.

Results

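Homeodomain transcription factors bind DNA through a fold of helices and, in combinations, set which kind of neuron a postmitotic cell becomes, including its transmitter, its wiring and its receptors. In the fly brain many of them mark single lineages or hemilineages, so that a given factor is found in a scattered minority of neurons, whereas others, such as the Hox cofactors hth and exd, are broadly present. A smaller number act elsewhere, for instance repo in glia and the Pax6 genes ey and toy in the mushroom body and in progenitors. Here 51 homeodomain genes with a role in neuron identity were followed across the cell types of the first instar larval brain. The list was given as gene symbols, and all 51 were among the 17493 genes counted. No cutoff on expression chose them, but the list was made with earlier results of these data known. By family they were 7 LIM genes (Awh, Lmx1a, CG4328, Lim1, Lim3, ap, tup), 3 POU genes (acj6, vvl, pdm3), 12 paired-like genes (unc-4, hbn, Rx, Vsx1, otp, Drgx, PHDP, oc, Gsc, Ptx1, repo, CG32532), 2 PAX genes (ey, toy), 2 sine oculis family genes (Optix, so), 16 genes of the Antennapedia and NK-like classes (exex, C15, Dll, scro, vnd, bsh, Hmx, Dbx, ems, E5, en, inv, eve, ind, HGTX, unpg), 5 TALE genes (mirr, ara, caup, hth, exd), 2 CUT genes (ct, onecut) and 2 zinc finger genes with a homeodomain (zfh1, zfh2).

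The cells came from dissociated brain lobes of late first instar Drosophila larvae of the wild type strain Canton-S, raised at 25 °C on cornmeal agar, and no group carried a transgene or mutation. In the normal group larvae fed until dissection, and in the starvation group they were kept without food for the last 4 hr. Transcripts were counted as unique molecular identifiers (UMIs), so that PCR copies of 1 molecule count once. The 4 normal and 3 starvation libraries, each made from pooled brains without the ventral nerve cord, were summed by experiment. This gave 3 replicates fed normally, here named Normal A, Normal B and Normal C, and 2 of starved larvae, Starvation A and Starvation B.

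Depth differed widely between replicates, from 5359444 UMIs and a median of 2228 per cell in Normal A to 40988696 UMIs in Starvation A and a median of 13486 per cell in Normal C. After filtering 8696 of 9353 cells remained, in 38 clusters that were built without the homeodomain genes and named by other markers. Libraries shared barcodes: 664 barcodes occurred in more than 1 library and marked 1794 cells (19.2%), and for 1095 of these cells another library held over 3 times as many UMIs of the same barcode. These lower copies made up 36.0% of the kept cells of Normal B, 7.37% of Starvation A, and at most 0.405% of the others. They were frequent among neuroblasts (41.7%) and in the optic lobe epithelium (56.9%) and made up 5.91% of neurons. Of the neuron clusters, cluster 1 was drawn to 88.3% from Normal A, cluster 8 to 90.6% from Normal B and cluster 16 to 83.3% from Normal C, so that neurons of the replicates were not evenly mixed.

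The classes compared were 4504 neurons (median 6983 UMIs per cell), 821 undifferentiated neurons (UNs, named by hdc, unk and scyl and shallower at 2259 UMIs), 249 Kenyon cells of the mushroom body, 1138 neuroblasts, 188 cells of the optic lobe epithelium and 596 glial cells. As cells outside the nervous system, 107 muscle cells, 106 hemocytes and 52 prothoracic gland cells came along. Of the UNs 229 formed a cluster drawn to 92.6% from Normal A and led by the heat shock genes Hsp70Bc and Hsp68, which are stress genes, and Normal C had 3 UNs. Another 935 cells in 8 clusters were left without a name, among them a cluster of 421 cells led by SIFa, Gadd45 and Arc1, and enter no class. Neurons were assigned to a transmitter from its own synthesis or transport genes alone: 870 were glutamatergic (VGlut), 1916 cholinergic (ChAT, VAChT), 840 GABAergic (Gad1, VGAT) and 240 monoaminergic (Vmat), and 638 shallow neurons (median 2688 UMIs) were unassigned. Transcripts of another transmitter were present at low counts, since 53.8% of cholinergic neurons held a VGlut UMI, with a median of 1 per cell against 28 in glutamatergic neurons. How much of that came from free RNA was not tested.

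Neurons and UNs held the highest level of most of the 51 genes. By mean CPM (the UMIs of a gene scaled to all UMIs of its class, over replicates with at least 20 cells of that class), and among classes with at least 3 such replicates, 23 genes led in neurons, 18 in UNs, 4 in Kenyon cells, 3 in glia, 2 in neuroblasts and 1 in the optic lobe epithelium. The share of all genes led by each class was not computed. For most genes led by neurons or UNs, the replicate values overlapped with those of the next class. Leaving out 1 replicate gave 19 to 26 genes led by neurons and 15 to 20 led by UNs. A neuron held UMIs of a median of 7 of the genes. With each cell thinned to 1000 UMIs the mean was 2.63 genes in neurons and 2.62 in UNs, against 1.36 in neuroblasts, 1.21 in Kenyon cells, 1.11 in glia, 0.979 in the optic lobe epithelium, 0.963 in muscle and 0.557 in hemocytes. Over the 4 transmitter groups the thinned means ran from 2.29 in monoaminergic to 2.69 in cholinergic neurons.

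**Figure D1:**
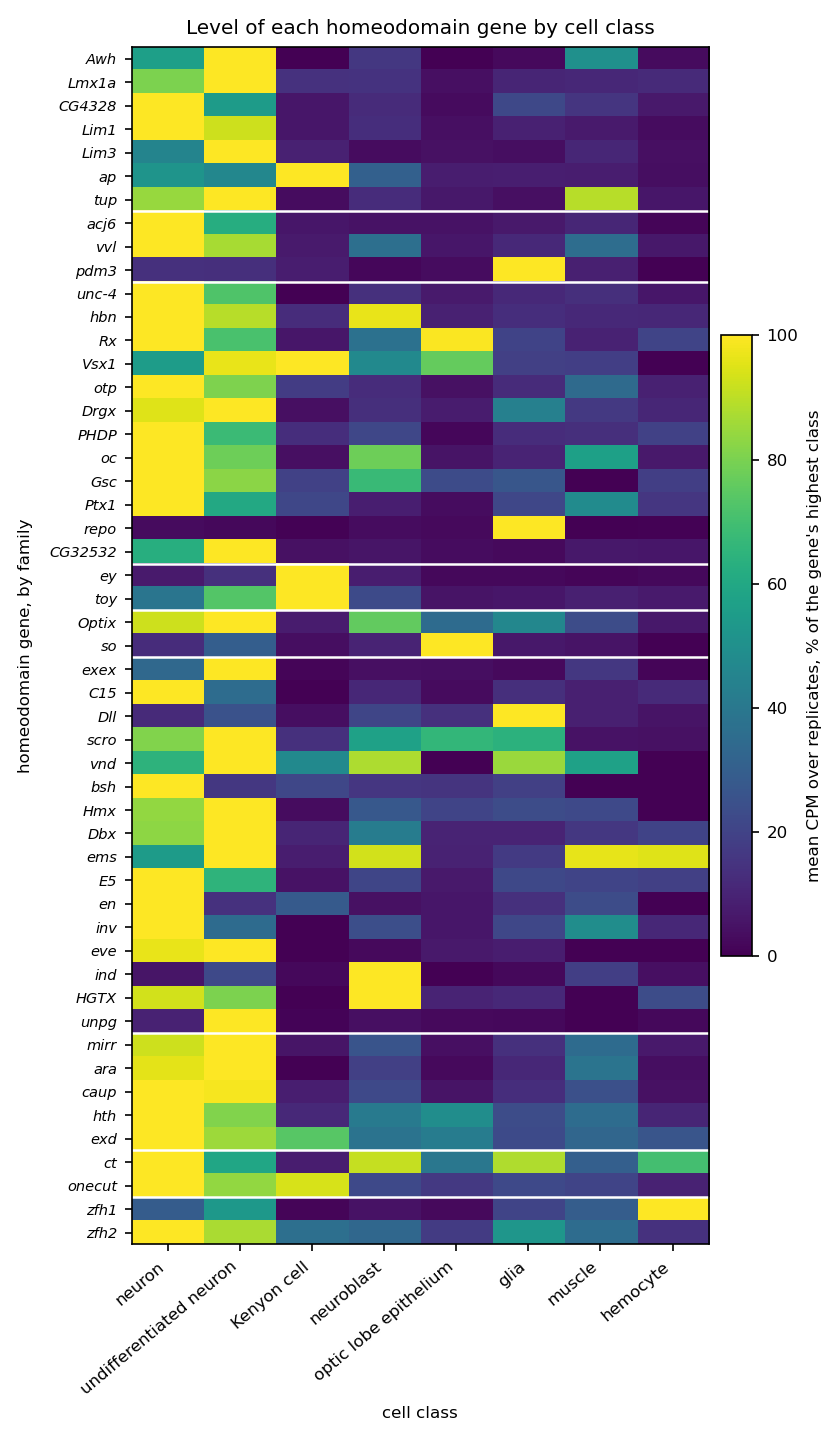
Mean level of each of the 51 homeodomain genes (rows, by family) in 8 cell classes (columns), as a percentage of that gene's highest class mean. Most rows peak in the 2 left columns, neurons and undifferentiated neurons, while ap, Vsx1, ey and toy peak in Kenyon cells, ind and HGTX in neuroblasts, repo, pdm3 and Dll in glia, so in the optic lobe epithelium and zfh1 in hemocytes.

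The breadth of detection in neurons ranged from hth to ind. hth, which carries exd into the nucleus, had a UMI in 81.5% of neurons, and its partner exd in 72.2%. They were followed by zfh2 (49.2%), the POU gene vvl (42.9%), ct (41.2%), Lim1 (38.7%), onecut (37.5%), toy (31.8%) and mirr (22.8%). At the other end vnd was found in 1.02% and ind in 0.599% of neurons, both of them genes that pattern columns of the embryonic neuroectoderm. Shares depend on depth: at 1000 UMIs per cell hth was found in 49.8% of neurons, in 10.4% of hemocytes and in 30.8% of muscle cells, from unthinned shares of 58.5% and 65.4% in the latter at median depths of 12150 and 3220 UMIs. For onecut the thinned shares were 6.57% in neurons and 1.89% in hemocytes.

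Of the broad genes some had steady levels over the replicates and others did not. onecut measured 66.9, 72.6 and 71.7 CPM in neurons of the 3 normal replicates and 70.0 and 74.6 CPM in the starvation replicates. zfh2 was at 159 ± 9.63 CPM, Lim1 at 290 ± 15.6 CPM and ct at 361 ± 25.9 CPM (SD, n = 5). exd was more spread, from 159 to 279 CPM (222 ± 51.3 CPM), as were vvl, from 456 to 641 CPM, and toy, from 131 to 230 CPM. hth varied too, at 1263, 909.5 and 1108 CPM in normal and 1647 and 1290 CPM in starvation replicates. Outside neurons it was lowest in hemocytes (126 CPM, mean of 2 replicates) and in Kenyon cells (144 ± 62.1 CPM, SD, n = 4), and exd, at 164 ± 41.6 CPM, was not correspondingly low in Kenyon cells.

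In Kenyon cells the Pax6 genes stood out. ey, which is needed for mushroom body development, measured 211 and 283 CPM in Normal A and B and 248 and 218 CPM in Starvation A and B, and Normal C had too few Kenyon cells for a value. Every one of these values was above all those of other classes, of which UNs came next with 33.1 ± 4.43 CPM (SD, n = 4). toy, its paralog, measured 409, 401, 418 and 354 CPM in the same 4 replicates, against 290 ± 74.4 CPM in UNs (186 to 350 CPM) and 155 ± 42.5 CPM in neurons, so that here the highest UN value came close to the lowest Kenyon cell value. ey was found in 69.5% of Kenyon cells and in 5.54% of glial cells, at median depths of 5407 and 4873 UMIs. ap and Vsx1 also had their highest class mean in Kenyon cells (36.7 ± 25.5 and 31.9 ± 6.92 CPM) but overlapped with neurons and UNs respectively. A cluster of 99 cells left without a name, led by E(spl)m6-BFM, Hey, tll and dac besides ey itself, had 465 CPM of ey and 163 CPM of Vsx1, both the highest of any cluster.

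3 genes on the list were glial rather than neuronal in these cells. repo is a gene of lateral glia and was not used here to name them. It measured 195, 209 and 115 CPM in glia of Normal A to C and 165 and 110 CPM in Starvation A and B. Against this stood 5.18 ± 6.81 CPM in neuroblasts and 4.64 ± 4.43 CPM in neurons (SD, n = 5). The largest values outside glia, 12.2 CPM in neurons and 16.9 CPM in neuroblasts, were those of Normal A, the shallowest replicate. All 6 glial clusters had repo, from 89.98 CPM in the cluster led by Mdr65, a blood-brain barrier transporter, to 213 CPM in the clusters led by wrapper, a gene of cortex glia, and with Gat and alrm, markers of astrocyte-like glia. UMIs of repo were in 44.97% of glial cells and 3.02% of neurons. Dll, better known from limb development, measured 61.9, 50.6, 41.4, 48.4 and 53.9 CPM in the 5 replicates, and pdm3, a POU gene of olfactory wiring, 22.5, 43.9, 38.6, 39.1 and 23.4 CPM, each without overlap with any other class. Within glia the pair was unequal. The astrocyte-like cluster had 124 CPM of Dll and 81.5 CPM of pdm3, whereas a cluster led by CG5080 and dmGlut had 78.5 CPM of pdm3 with 1.19 CPM of Dll. A cluster with NimA and Gs2 had the reverse, 94.4 CPM of Dll beside 22.5 CPM of pdm3.

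Among progenitors, so was apart from the other classes. so, the sine oculis gene of eye and optic lobe formation, measured 17.4 CPM in the optic lobe epithelium of Normal B, 32.4 CPM in Normal C and 33.7 CPM in Starvation A, and 8.27 ± 6.46 CPM in UNs, the next class. Its family member Optix was at 53.3 ± 23.8 CPM there (SD, n = 3), and at 141 ± 31.7 CPM in neurons. ind had its highest mean in neuroblasts but overlapped with other classes, at 0, 15.9, 1.54, 15.4 and 45.5 CPM in the 5 replicates, and it overlaps Sytbeta on the same strand, so that reads may be shared between them. HGTX (8.63 ± 7.44 CPM in neuroblasts, 8.05 ± 5.08 CPM in neurons), hbn (24.4 ± 11.9 and 25.3 ± 10.9 CPM) and ct (328 ± 119 and 361 ± 25.9 CPM) overlapped between neuroblasts and neurons. In contrast Lim1, at 37.6 ± 15.6 CPM in neuroblasts, and onecut, at 15.8 ± 1.75 CPM, were lower there than in any replicate of neurons.

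A number of genes, chosen after their values were seen, had higher levels in UNs than in neurons. exex, the fly HB9 gene of motor neurons, measured 69.2, 60.0, 30.3 and 59.2 CPM in UNs of Normal A, Normal B, Starvation A and Starvation B, above all values in neurons, which ran from 12.7 to 27.4 CPM. Lim3, a LIM gene of motor and interneurons, measured 78.3, 86.6, 46.3 and 62.9 CPM in UNs against 30.9 ± 3.35 CPM in neurons. unpg followed with 29.1, 10.4, 25.0 and 62.9 CPM against 3.05 ± 2.53 CPM, and zfh1 with 58.3, 106, 74.9 and 92.5 CPM against 45.5 ± 7.03 CPM. The groups did not overlap for any of these genes. Other genes of motor or ventral lineages overlapped, such as eve (5.48 ± 4.53 CPM in UNs, 5.30 ± 3.06 CPM in neurons), tup (55.8 ± 12.9 and 47.3 ± 8.45 CPM), vnd (2.56 ± 3.24 and 1.65 ± 0.77 CPM) and HGTX (6.93 ± 3.17 and 8.05 ± 5.08 CPM). Few UMIs stand behind these means in the shallow UNs, and unpg had UMIs in 21 of 821 UNs (2.56%). zfh1, which also acts in mesoderm and blood, was higher still in hemocytes, at 105 and 206 CPM in the 2 replicates with enough of these cells, and tup was at 29.6 and 70.2 CPM in muscle, next to 47.3 ± 8.45 CPM in neurons.

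A few clusters of neurons combined several genes at high level. The clearest was cluster 25, 98 cholinergic-leading neurons from 4 of the 5 replicates (none in Normal A). It had 212 CPM of C15, the fly Tlx gene, with UMIs in 64.3% of its cells, and the next highest cluster had 28.6 CPM. In the same cluster acj6 was at 401 CPM, otp at 276 CPM, mirr at 387 CPM, caup at 163 CPM and hth at 3133 CPM, each the highest of all 38 clusters. bsh peaked at 46.6 CPM in cluster 12, whose leading genes DAT, ple, Vmat and SerT are those of dopamine and serotonin neurons, and eve at 37.1 CPM in cluster 20. Lim1 was highest in a cluster of 42 cells left without a name, led by Poxn, Sox21b and Dr and expressing Gad1, with 1038 CPM and UMIs in 97.6% of cells, where ct reached 1020 CPM. These are values of the cells clustered and were not tested.

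To ask which genes differ with transmitter, UMIs were summed per replicate and transmitter group and each group was set against the average of the other 3 on the log2 scale. Of the 51 genes 41 passed the filter on low counts, and Dll, HGTX, ems, eve, ind, pdm3, repo, so, unpg and vnd were not tested. 33 of the 51 changed in at least 1 of the 4 contrasts, which is 80.5% of those tested, against 15.8% of all 6228 genes tested. The list was made with earlier results of these data known, so the 2 shares are not an independent comparison. A sparse gene can also pass the filter through the group in which it is high, which makes a call more likely. All 11 paired-like and all 9 Antennapedia and NK-like genes that were tested changed, as did 6 of 7 LIM genes, whereas 2 of 5 TALE genes did. Lim1, vvl, ey, ara, caup, exd, onecut and zfh2 passed in none. Of these exd lay between 220 and 233 CPM and onecut between 64.4 and 79.0 CPM in the 4 groups, while Lim1 (186 to 330 CPM) and ara (8.401 to 27.2 CPM) had wider ranges with larger spread. Of 45 further homeodomain genes not on the list 12 could be tested, and 1 was higher in each of the glutamatergic and cholinergic groups, while 4 were higher and 1 lower in GABAergic and 2 higher and 1 lower in monoaminergic neurons.

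The contrast averages the other groups, so that a gene nearly absent from 1 group can count as higher in several others. The 4 sums of a replicate come from the same libraries, and the 4 contrasts share all samples, hence each is given for itself. The median size of the log2 fold change over the 41 genes was 0.54 in the glutamatergic, 0.95 in the cholinergic, 1.28 in the GABAergic and 1.06 in the monoaminergic contrast, beside 0.10, 0.10, 0.12 and 0.17 over all genes.

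**Figure D2:**
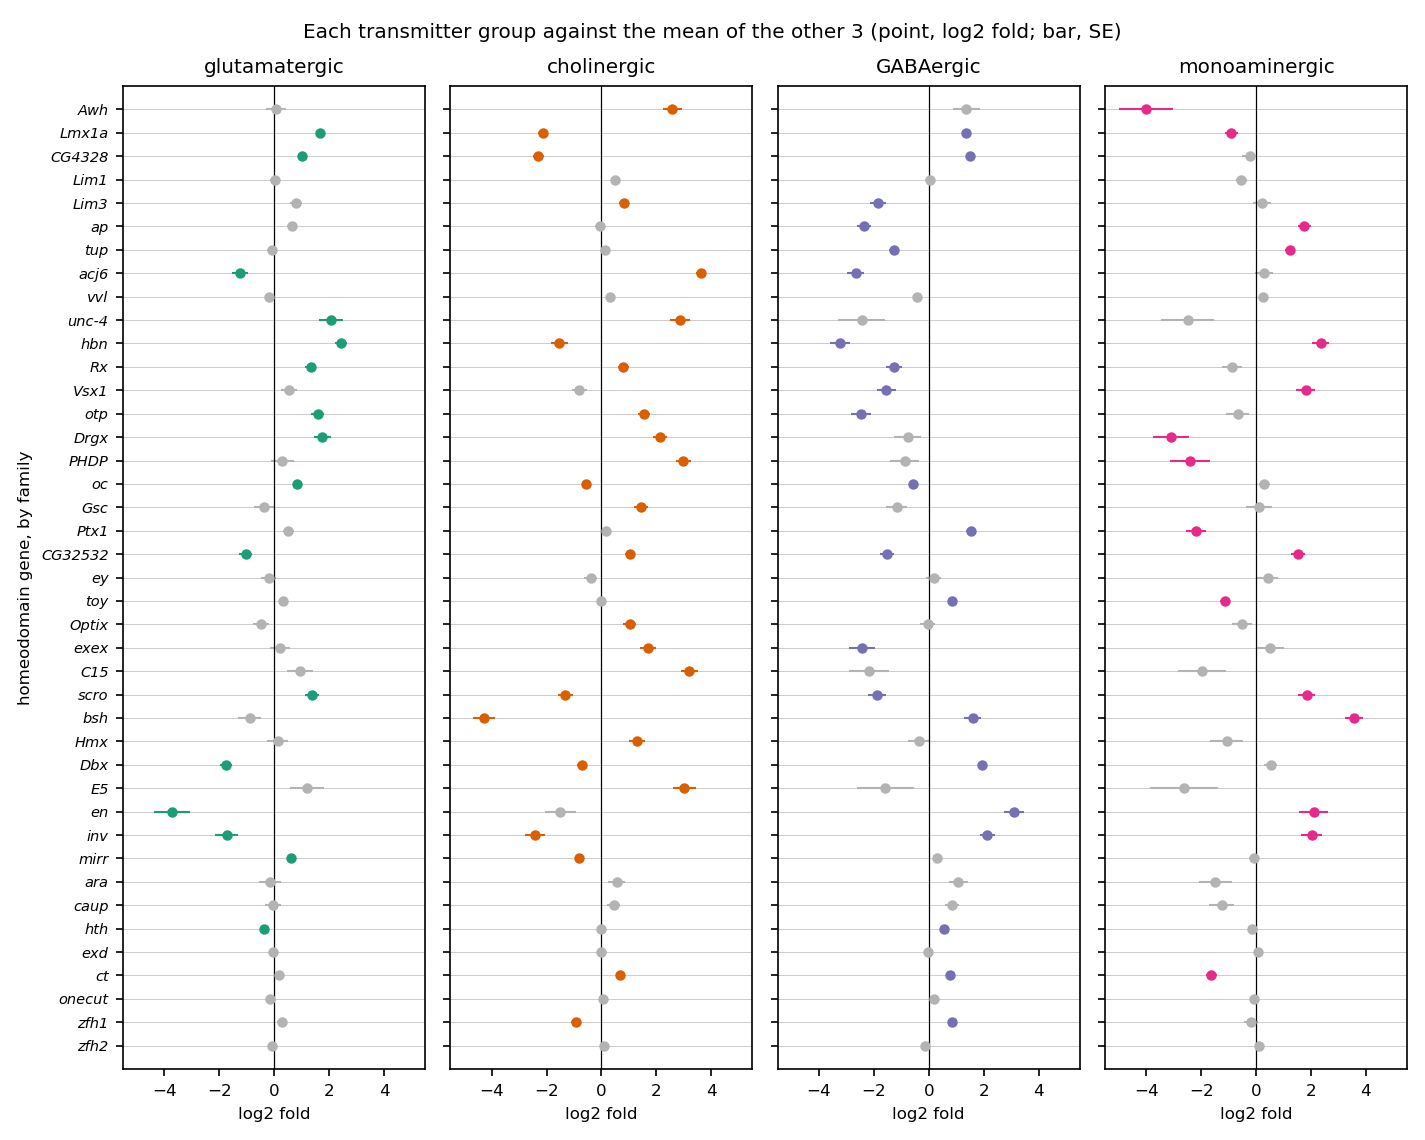
Log2 fold change of the 41 tested genes in each transmitter group against the average of the other 3 (points) with its standard error (bars). Coloured points passed an adjusted p of 0.05 and grey points did not. Cholinergic neurons have the longest row of coloured points to the right (16 genes), led by acj6, and the broad genes onecut, exd and zfh2 lie near 0 in all 4 panels.

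In cholinergic neurons 16 genes were higher and 10 lower (background over all genes 3.61% higher and 2.7% lower, 6.31% in either direction). The gene with the largest change was acj6, a POU gene that controls receptor choice and wiring of olfactory neurons. It measured 143, 222 and 151 CPM in Normal A to C and 153 and 170 CPM in Starvation A and B, against a mean of 15.8 CPM over the other 3 groups. Every cholinergic value was above every value of the other groups, and the log2 fold change was 3.62 ± 0.17 (SE, edgeR adjusted p = 4.1e-13). UMIs of acj6 were in 22.3% of cholinergic and 2.74% of GABAergic neurons, at median depths of 7685 and 7953 UMIs. Pp1-13C lies within acj6 on the same strand, so that shared reads are possible.

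PHDP, a little-studied paired-like gene, likewise had no overlap with the other groups. It measured 31.3, 47.4, 23.2, 40.9 and 33.8 CPM in the 5 replicates against 6.49 CPM elsewhere (log2 2.99 ± 0.26). C15 measured 29.6, 42.8, 16.2, 41.0 and 20.7 CPM against 4.70 CPM (3.20 ± 0.32, adjusted p = 1.8e-07), with 1 overlap, a glutamatergic value of 23.5 CPM in Starvation B. E5 (3.02 ± 0.41), unc-4 (2.86 ± 0.35), a gene of cholinergic motor and interneuron fate in the nerve cord, Awh (2.57 ± 0.34), Drgx (2.13 ± 0.26), exex (1.69 ± 0.28), otp (1.55 ± 0.21), Gsc (1.45 ± 0.26), Hmx (1.29 ± 0.29) and CG32532 (1.05 ± 0.17) followed. All of these were above the mean of the other groups in 5 of 5 replicates, apart from CG32532 with 4. Hmx was not called by DESeq2 (adjusted p = 0.25) or without the replicate block (edgeR, 0.23). For the 3 smaller calls of Optix, Lim3 and Rx the adjusted p rose to 0.14, 0.18 and 0.12 without Starvation A, the replicate with most cells, and ct was the last of the 16.

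Lower in cholinergic neurons was first of all bsh, a brain-specific NK-like gene, with 0.870, 0.668, 0.331, 1.26 and 0.690 CPM against 27.0 CPM (log2 -4.28 ± 0.41, adjusted p = 1.2e-07). It was nearly absent there. inv fell by 2.43, CG4328 by 2.31, Lmx1a by 2.13, hbn by 1.54, scro by 1.32, zfh1 by 0.95, mirr by 0.82, Dbx by 0.71 and oc by 0.57 on the log2 scale. The adjusted p of hbn was 0.093 without Starvation A, that of Dbx 0.12 without Normal B and 0.22 without Starvation A, and that of oc 0.085 without Normal B. Among the 26 cholinergic calls, 22 lay on the same side of the mean of the other groups in every replicate.

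In GABAergic neurons 11 genes were higher and 12 lower (background 4.69% and 2.73%, 7.42% in either direction). Dbx, which marks GABAergic interneuron lineages in the nerve cord, measured 83.8, 64.6 and 40.9 CPM in Normal A to C and 59.8 and 30.8 CPM in Starvation A and B, against 16.1 CPM in the other groups (log2 1.96 ± 0.15, adjusted p = 5.3e-09). It was above each other group within all 5 replicates, and was found in 18.2% of GABAergic against 4.71% of glutamatergic neurons. The segment polarity gene en had the largest fold change (3.10 ± 0.35, adjusted p = 2.0e-06) at uneven levels of 7.62, 2.08, 14.6, 31.04 and 51.9 CPM, each the highest group of its replicate. Its neighbour inv changed with it (2.13 ± 0.27), at 12.7, 8.33, 5.55, 30.8 and 16.2 CPM.

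Ptx1 (1.53 ± 0.18), CG4328 (1.52 ± 0.16), Lmx1a (1.36 ± 0.14), zfh1 (0.85 ± 0.17), toy (0.84 ± 0.13), ct (0.78 ± 0.15) and hth (0.55 ± 0.10) were higher as well, each above the mean of the others in 5 of 5 replicates. The call of hth was lost with the homeodomain genes kept in the clustering (log2 0.34, adjusted p = 0.27), without the replicate block (0.17) and among neurons with UMIs of 1 transmitter set only (log2 0.03, adjusted p = 0.996). bsh was called at 1.60 ± 0.30, but its mean of 19.8 CPM was not above the mean of 20.7 CPM over the other groups and it exceeded that mean in 2 of 5 replicates. Its level in cholinergic neurons, near 0, lowers the average of the others on the log2 scale.

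The genes lower in GABAergic neurons were largely those of the other groups. hbn was at 5.08, 3.12, 2.77, 3.74 and 0 CPM against 52.6 CPM (log2 -3.23 ± 0.37), acj6 fell by 2.65, otp by 2.46, exex by 2.43 and ap by 2.35 on the log2 scale. scro (-1.89 ± 0.34), Lim3 (-1.84 ± 0.28), Vsx1 (-1.54 ± 0.35), CG32532 (-1.52 ± 0.25), tup (-1.28 ± 0.17), Rx (-1.26 ± 0.28) and oc (-0.57 ± 0.16) came after them. In all 12 the GABAergic level was below the mean of the others in 5 of 5 replicates. Without Starvation A exex no longer passed (adjusted p = 0.16), nor did Rx without Normal B (0.15), and oc was lost without any 1 of Normal B (0.051), Normal C (0.066), Starvation A (0.22) or Starvation B (0.079).

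**Figure D3:**
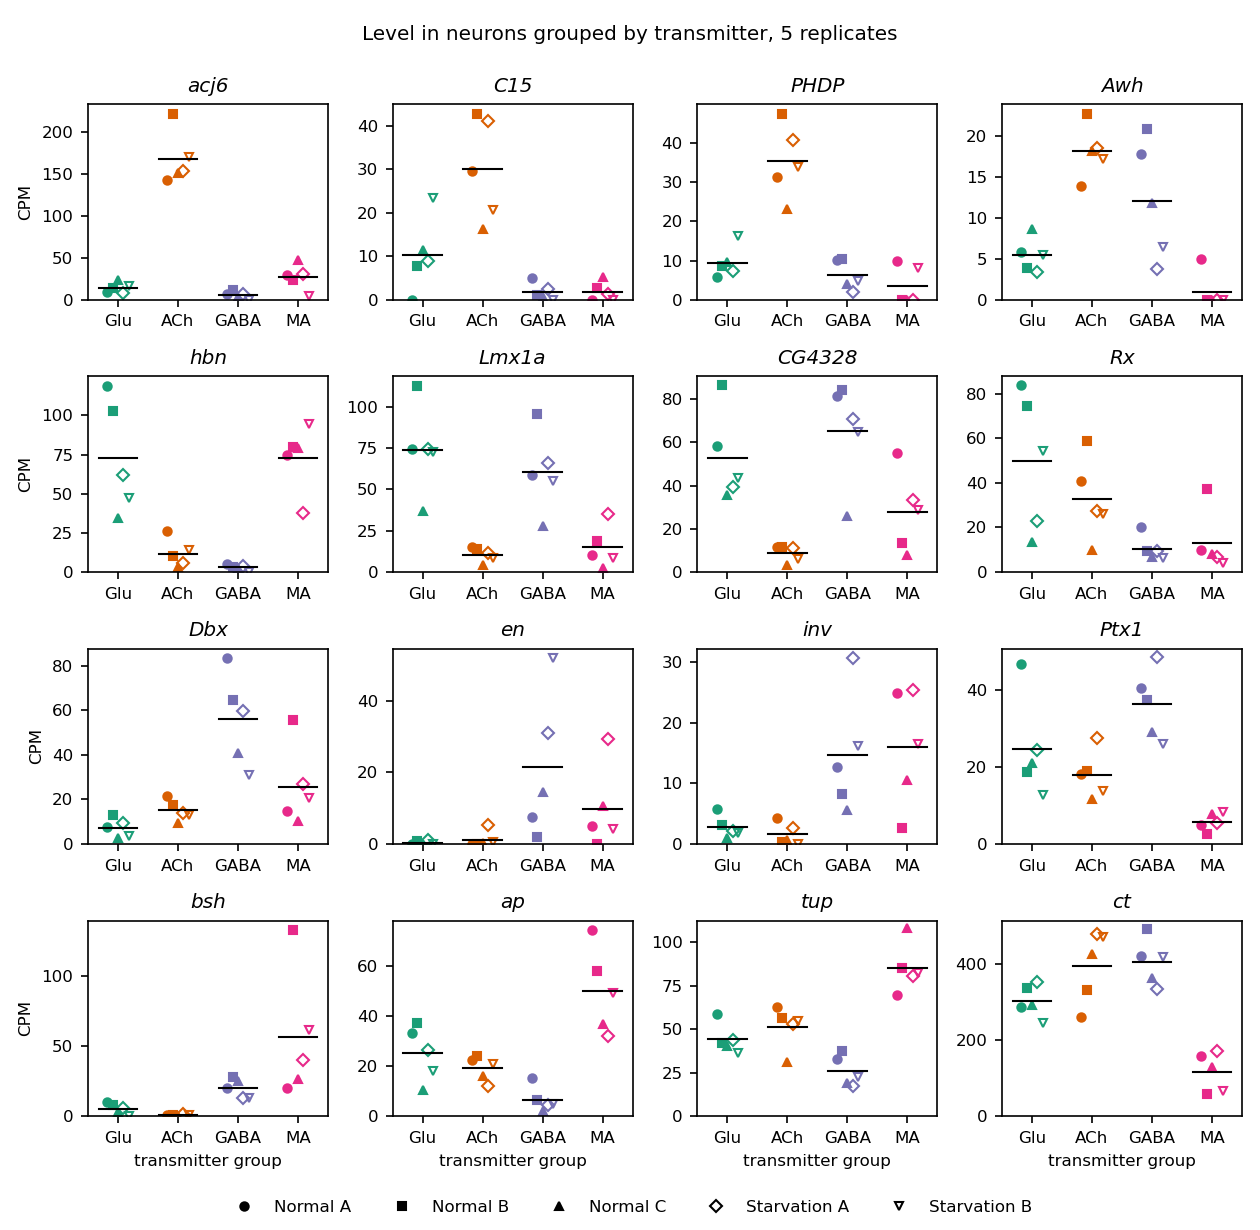
Level in CPM of 16 homeodomain genes in glutamatergic (Glu), cholinergic (ACh), GABAergic and monoaminergic (MA) neurons. Each point is 1 replicate (filled for normal, open for starvation) and each bar the mean of 5. acj6 and PHDP are apart in cholinergic neurons, tup, ct and Ptx1 in monoaminergic neurons, and en is high in GABAergic neurons with widely spread points.

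In glutamatergic neurons 10 genes were higher and 6 lower (background 1.75% and 1.4%, 3.15% in either direction). hbn, the fly homeobrain gene, measured 119, 103 and 34.7 CPM in Normal A to C and 62.1 and 47.0 CPM in Starvation A and B, against 29.2 CPM elsewhere (log2 2.42 ± 0.22, adjusted p = 1.3e-07). Monoaminergic neurons had as much of it, with a mean of 73.05 CPM in both groups (SD 21.3 and 36.2 CPM, n = 5 each). Lmx1a, whose mammalian relatives act in dopaminergic and hindbrain neurons, measured 74.1, 113, 36.6, 74.1 and 72.3 CPM against 28.6 CPM (1.68 ± 0.13, adjusted p = 1.4e-08), and was above each other group within all 5 replicates.

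unc-4 (2.06 ± 0.44), Drgx (1.75 ± 0.30), otp (1.58 ± 0.24), scro (1.36 ± 0.25), Rx (1.33 ± 0.21), CG4328 (1.02 ± 0.17), oc (0.83 ± 0.14) and mirr (0.61 ± 0.14) were also higher. Of these, unc-4, Drgx, otp and Rx were called higher in cholinergic neurons as well. oc was lost without Starvation A (adjusted p = 0.084) and mirr without Normal C (0.058), Starvation A (0.060) or Starvation B (0.064). Lower were en, at 0, 0.777, 0, 1.03 and 0 CPM (log2 -3.71 ± 0.66, below the mean of the others in 4 of 5 replicates), and Dbx (-1.77 ± 0.22). The calls of inv (-1.73 ± 0.42), acj6 (-1.25 ± 0.28), CG32532 (-1.04 ± 0.24) and hth (-0.38 ± 0.10) were less stable. Without Starvation A their adjusted p was 0.71, 0.34, 0.11 and 0.062, and 1 gene was called lower. inv was lost without Normal C (0.060), acj6 without Normal A (0.052) or Normal B (0.061), CG32532 without Normal B (0.053) and hth without Normal A (0.090) or Normal C (0.098). Without Normal C 3 genes passed as lower. Of the 16 glutamatergic calls, 12 lay on the same side of the mean of the other groups in every replicate. acj6 was lower than in cholinergic neurons but, at 14.4 CPM, above its 5.83 CPM in GABAergic neurons.

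In monoaminergic neurons, the smallest group with 28 to 80 cells per replicate, 9 genes were higher and 7 lower (background 4.5% and 4.7%, 9.2% in either direction). bsh measured 19.9, 133 and 26.3 CPM in Normal A to C and 40.1 and 61.6 CPM in Starvation A and B, against 8.59 CPM elsewhere (log2 3.57 ± 0.32, adjusted p = 5.6e-08). It was in 16.2% of monoaminergic and 0.678% of cholinergic neurons, at median depths of 7914 and 7685 UMIs. tup, the fly Islet gene, known from dopaminergic and serotonergic neurons of the nerve cord, measured 69.8, 84.9, 108, 80.2 and 82.2 CPM, above every value of the other groups, whose mean was 40.5 CPM (1.23 ± 0.18, adjusted p = 5.1e-05). ap measured 74.8, 58.4, 36.8, 32.1 and 49.3 CPM against 16.9 CPM (1.76 ± 0.23) and was the highest group within all 5 replicates.

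hbn (2.35 ± 0.30), scro (1.84 ± 0.31), Vsx1 (1.81 ± 0.34) and CG32532 (1.51 ± 0.26) were higher too, with Vsx1 uneven at 59.8, 2.65, 39.5, 53.5 and 90.4 CPM. en (2.11 ± 0.53) had no UMI in Normal B and exceeded the mean of the others in 3 of 5 replicates, and inv (2.03 ± 0.39) was lost without Starvation A (adjusted p = 0.051). On the lower side ct, which shapes dendrites of sensory neurons, measured 160, 58.4, 129, 171 and 65.7 CPM, below every value of the other groups (mean 368 CPM, log2 -1.62 ± 0.20, adjusted p = 4.4e-06). Ptx1 was as clearly apart, at 4.99, 2.65, 7.89, 5.35 and 8.22 CPM against 26.4 CPM (-2.19 ± 0.35).

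Awh (-4.01 ± 0.97) had UMIs in 1 replicate of monoaminergic neurons, Drgx (-3.10 ± 0.65) and PHDP (-2.40 ± 0.73) in 2 each, so that the sizes of these changes depend on the prior count of the fit. toy (-1.14 ± 0.18) and Lmx1a (-0.91 ± 0.24) were lower as well. In 12 of the 16 monoaminergic calls every replicate lay on the same side of the mean of the other groups. PHDP was lost without Normal B (0.14), Normal C (0.12) or Starvation A (0.10), and Lmx1a without Normal A (0.054), Normal B (0.11), Normal C (0.055) or Starvation B (0.062). When only the 71 monoaminergic neurons without UMIs of another transmitter set entered, 0 of the genes passed as higher and 2 as lower.

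Whether these differences themselves changed with starvation was tested as an interaction. edgeR called 0 of the 41 genes, and 0 of 6228 genes overall (0.0%), in each of the 4 contrasts. At an unadjusted p under 0.05 there were 4, 3, 6 and 3 of the genes in the glutamatergic, cholinergic, GABAergic and monoaminergic contrasts, and 217, 204, 225 and 365 of all genes. The smallest adjusted p among the homeodomain genes was 0.16, for vvl in the monoaminergic contrast. DESeq2 was not run for the interaction.

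Pairs of homeodomain genes were then counted within single neurons. For each of the 1275 pairs, the neurons with a UMI of both were compared with the number expected if the 2 genes were detected independently at each cell's depth and at the rates of its replicate. 307 pairs had under 10 neurons expected and were not ranked. Of the other 968, 235 pairs were found together more often than expected and the median ratio of observed to expected was 0.859, so that most pairs lay below 1. A ratio of at least 2 was reached by 24 pairs, 23 of them with a ratio above 1 in every replicate with at least 1 neuron expected, and a ratio of at most 0.5 by 185 pairs, 158 of them below 1 in every such replicate. The ratios are a description across neurons that share libraries and clusters, with no test.

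**Figure D4:**
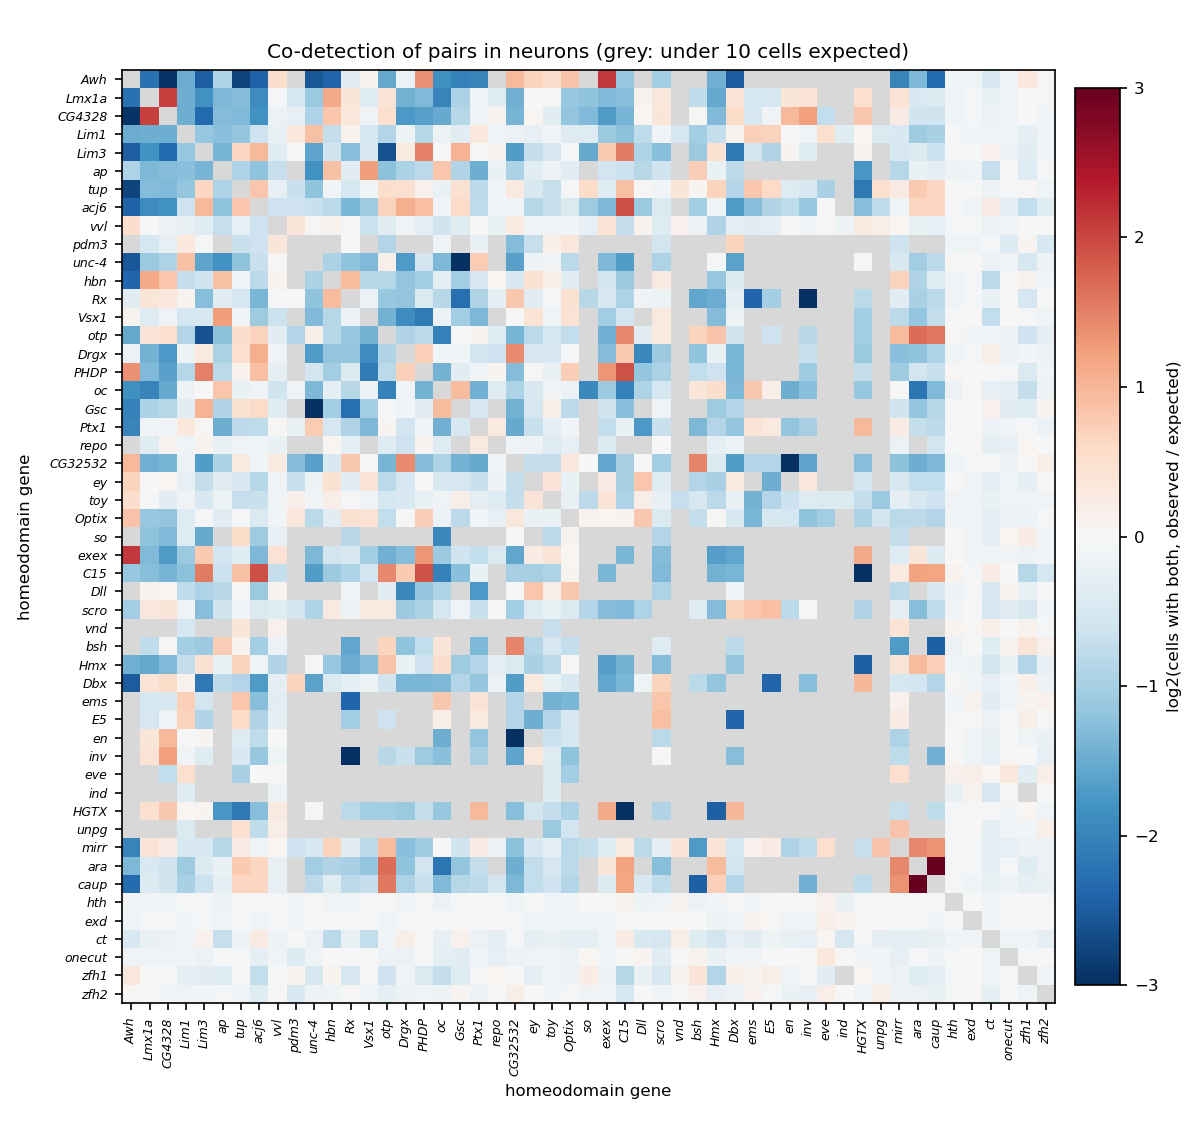
Log2 ratio of observed to expected neurons with UMIs of both genes, for all pairs of the 51 genes in 4504 neurons (red, more than expected, blue, fewer, grey, under 10 expected). Red squares mark ara with caup, Lmx1a with CG4328, Awh with exex and C15 with its partners. The rows of hth, exd, ct, onecut, zfh1, zfh2 and vvl are pale throughout. hth and exd, found in most neurons, could not reach a ratio of 2.

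The highest ranked ratio was that of a pair of chromosomal neighbours. ara and caup, Iroquois genes 13.6 kb apart on chromosome 3L (12580672 to 12596018 and 12609631 to 12621798, plus strand, BDGP6 assembly), shared 161 neurons where 19.8 were expected (ratio 8.11, 5.70 to 12.1 over the 5 replicates). The shared neurons were 77.0% of those with ara and 48.8% of those with caup. mirr, the next Iroquois gene, 71.8 kb from caup, shared 239 neurons with it (94.6 expected, ratio 2.53) and 165 with ara (60.6 expected, 2.72). en and inv on chromosome 2R (11524006 to 11528210 and 11474465 to 11509695) shared 52 neurons against 3.36 expected, 57.8% of those with en and 46.4% of those with inv. ems and E5 on chromosome 3R (13901853 to 13904620 and 13867345 to 13874916) shared 51 neurons against 2.54, that is 57.3% and 51.5%. Both of the last pairs had under 10 expected and were not ranked.

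Lmx1a and CG4328, LIM genes 33.1 kb apart on chromosome 3L with 1 protein-coding gene between them, shared 273 neurons where 66.3 were expected (ratio 4.12, 2.97 to 5.97 over replicates). Within transmitter groups the ratio was 3.11 in glutamatergic, 5.89 in cholinergic and 2.42 in GABAergic neurons. Not every close pair had a high ratio. The paired-like genes otp, Rx and hbn lie near each other on chromosome 2R, with 1 protein-coding gene between Rx and otp, 2 between hbn and Rx, and 51.3 kb between otp and hbn. While hbn and Rx, 17.6 kb apart, were found together in 61 neurons (31.7 expected, ratio 1.92, 0.808 to 2.83), Rx and otp, 13.3 kb apart, were together in 21 (46.2 expected, 0.454) and hbn and otp in 15 (27.3 expected, 0.550).

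Other high pairs were not neighbours. Awh and exex shared 65 neurons (14.97 expected, ratio 4.34), 59 of which were cholinergic (11.1 expected there). C15 had most partners. It was found with acj6 in 140 neurons (36.4 expected, 3.84, with 2.77 to 5.79 over replicates), with PHDP in 81 (21.5 expected, 3.77), with Lim3 in 84 (28.7 expected, 2.93) and with otp in 63 (23.2 expected, 2.72). All 5 genes were higher in cholinergic neurons, and within these the ratio of C15 was 2.91 with acj6, 2.73 with PHDP, 2.52 with Lim3 and 2.61 with otp. The remaining pairs of the 12 highest were otp with ara (3.17) and with caup (2.99), Lim3 with PHDP (2.85) and Drgx with CG32532 (2.68, in 138 neurons with 51.4 expected).

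Low ratios were as marked, though the pairs named here were chosen after their values were seen. Awh was found with CG4328 in 4 neurons (30.6 expected), with tup in 7 (47.5 expected) and with acj6 in 7 (37.7 expected), and had 17 partners at a ratio of at most 0.5, as many as CG32532. Lim3 and otp shared 8 neurons (49.3 expected), although both had raised ratios with C15. Rx and inv, and CG32532 and en, shared 1 neuron each (12.9 and 12.2 expected). Of these, Rx and CG32532 were lower and inv and en higher in GABAergic neurons. The low pairs were not counted within transmitter groups, so how far their ratios follow from differences between these groups was not tested. hth, exd, ct, onecut, zfh1, zfh2 and vvl had no partner at a ratio of 2 or more and none at 0.5 or less. Each had 49 or 50 ranked pairs. Genes found in most neurons, such as hth (81.5%) and exd (72.2%), cannot reach a ratio of 2 with any partner. zfh2 (49.2%), vvl (42.9%) and ct (41.2%) had little room for it.

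Lastly, starvation was compared with normal feeding within neurons, Kenyon cells, neuroblasts and glia. edgeR called 0 of the 50 homeodomain genes tested in neurons, at a background of 0.0% of all 8014 genes. On simulated counts with a set spread between replicates, this test recovered 39% of 2-fold and 97% of 4-fold changes. The changes were set only in genes above a floor of mean counts, so recovery was not measured for sparse genes. A lack of calls therefore does not show that 2-fold changes, or larger changes of sparse genes, were absent. At an unadjusted p under 0.05 there were 3 of the genes, against 8.95% of all genes, and DESeq2 called 0 of them but 115 genes overall. The median log2 fold change was -0.0019 over these genes and 0.0033 over all genes, and the genes lay between -0.76 (repo) and 2.16 (en).

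HGTX, the fly Nkx6 gene, measured 4.29, 2.93 and 6.05 CPM in Normal A to C and 13.3 and 13.6 CPM in Starvation A and B (log2 1.61 ± 0.40, adjusted p = 0.28). en measured 2.97, 0.814 and 4.14 CPM against 12.0 and 11.4 CPM (2.16 ± 0.60, adjusted p = 0.30). In both the starvation values were above all normal values without passing the test. Gsc had 18.5, 21.3 and 12.7 CPM against 12.0 and 9.20 CPM (-0.66 ± 0.27, adjusted p = 0.52). Of the 50 genes, 11 had no overlap between conditions, in either direction. With 2 against 3 replicates such separation is common without any change, and its share over all genes was not computed. With no filter on low counts HGTX and en passed (adjusted p = 7.0e-03 and 7.0e-04), and with the 7 libraries as samples en did (0.042).

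**Figure D5:**
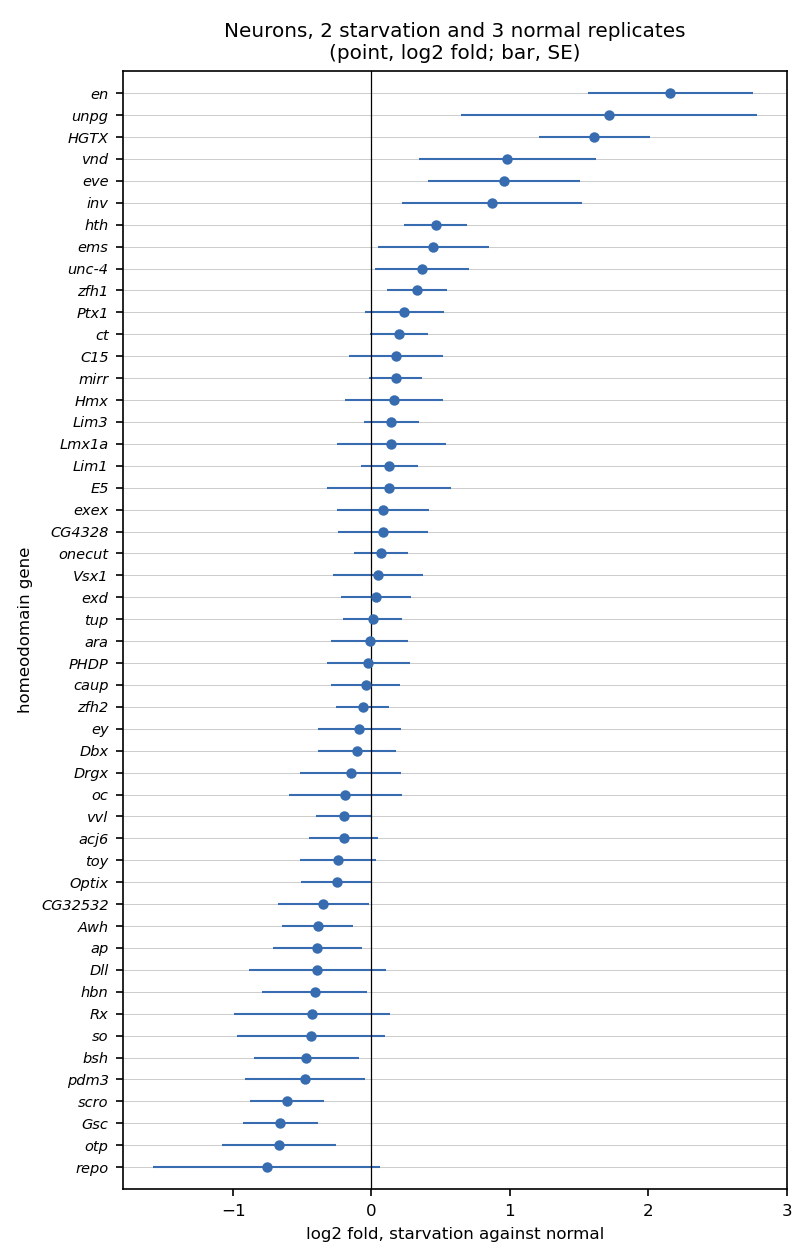
Log2 fold change of 50 homeodomain genes in neurons, 2 starvation against 3 normal replicates (points), with standard errors (bars), in order of size. en and HGTX lie farthest from 0 for their error, at 2.16 and 1.61, and none passed the adjusted p of 0.05.

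In Kenyon cells 8 of the genes could be tested and edgeR called 0 (background 0.0% of 3208 genes), with 0 at an unadjusted p under 0.05 (background 7.51%) and 0 by DESeq2. ey and toy changed by -0.07 ± 0.27 and 0.01 ± 0.25 on the log2 scale. hth passed without Normal A (adjusted p = 0.050, 1.33 ± 0.40). In neuroblasts edgeR called 0 of 34 genes (background 0.6% of 7172 genes), 2 had an unadjusted p under 0.05 (background 16.8%), and DESeq2 called 0. These were ind (2.12 ± 0.78, adjusted p = 0.20), with the uneven replicate values given above, and ems, at 4.23, 5.96 and 8.23 CPM against 13.3 and 10.7 CPM (0.96 ± 0.41, adjusted p = 0.26). ind passed without Normal B (adjusted p = 0.032, log2 4.54) and without Starvation A (0.048, log2 2.88).

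In glia edgeR called 0 of 14 genes (background 2.14% of 4387 genes), 2 had an unadjusted p under 0.05 (background 19.1%), and DESeq2 called 0. zfh1 measured 16.9, 23.6 and 29.4 CPM in Normal A to C and 42.4 and 46.9 CPM in Starvation A and B (1.12 ± 0.37, adjusted p = 0.13), and scro 56.3, 50.6 and 43.2 CPM against 25.3 and 23.4 CPM (-0.75 ± 0.33, adjusted p = 0.24). repo and Dll did not pass, with Dll at 0.26 ± 0.32.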

How the data were processed

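Single cell transcriptomes were measured in 7 droplet libraries. The authors counted UMIs with Cell Ranger against a reference built from a FlyBase release of the D. melanogaster genome and deposited raw counts per gene and cell, without normalization. The matrices aggregated by condition held the same counts. Labels and methods differ on the kit version (v2 or v3 chemistry). The labels number the libraries but do not name the experiments. Libraries were linked to the 5 replicates of the study's sequencing table through cell number, median genes and median UMIs, an inference from file values, and those of 1 experiment were summed.

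Cells with 200 to 4500 genes and at most 20% mitochondrial UMIs were kept. Scrublet (scanpy 1.11.5) called 40 of 9353 cells (0.428%), too few to rely on, so no doublets were removed. Cells were clustered in Seurat 5.3.0 (R 4.3.3; conditions integrated by anchors over 30 dimensions, 31 components, resolution 2, seed 42) on 1954 variable genes, the homeodomain genes having been taken out, and clusters were named by markers that include none of them. A neuron belonged to the transmitter set with the highest log2 of UMIs over those expected at its depth, given at least 2 UMIs and a lead of 1. 155 unassigned and 161 assigned neurons lay within 0.25 of that lead. Thinning drew 1000 UMIs per cell.

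Summed counts were tested with edgeR 4.0.16 (quasi-likelihood, TMM, filterByExpr, limma 3.58.1 beneath), with replicate as a block between transmitter groups and no block between conditions. The false discovery rate was held at 0.05 by the Benjamini-Hochberg procedure, run over every gene of a contrast, and DESeq2 1.42.0 served as an alternative. Replicates are separate pools of brains according to the methods, and shares of cells carry counting error only. Gene positions are from the Ensembl annotation of BDGP6. The named genes are the members called, at most the 12 with the largest change in a direction, the 12 highest pairs and neighbouring pairs, while others were added after their values were seen. The members and lists were chosen with earlier results of these data known. The GABAergic contrast and starvation in neurons were checked on simulated counts with the same spread set for every gene. Changes were set only in genes above a floor of mean counts. Recovered were 89% and 39% of 2-fold and 100% and 97% of 4-fold changes, in that order. The other contrasts, the interaction and DESeq2 were not checked in this way. Alternatives covered the filter, DESeq2, the block, the 7 libraries, single replicates left out, normal replicates alone, shared barcodes, the 5% of cells with the highest Scrublet scores, the assignment to a transmitter, the genes used for clustering and detection at 2 UMIs. No sequence was analysed here.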

Additional observations from a re-analysis of the deposited data

How the results depend on the processing

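Of 215 values of 18 counts recomputed under the alternatives, 185 stayed within 1.5 times the reported count. All 81 calls of single genes between transmitter groups held without the lower copies of barcodes shared between libraries. In every alternative in which the gene could be tested, 25 of 81 held. Among neurons with UMIs of 1 transmitter set only, 55 of the calls could be tested and 18 held, so some of the 25 were not tested there. DESeq2 kept 73 of 81 and did not call Hmx, Optix, Lim3, Rx, Dbx and scro in cholinergic, inv in glutamatergic and oc in GABAergic neurons (adjusted p from 0.054 to 0.25). With no replicate block 6 genes were higher and 1 lower in glutamatergic neurons, and 10 higher and 6 lower in cholinergic neurons. With normal replicates only 5 were higher and 2 lower in glutamatergic, and 6 lower in cholinergic neurons. When only neurons with UMIs of 1 transmitter set were assigned, which left 71 monoaminergic to 541 cholinergic neurons, higher and lower were 5 and 0 in glutamatergic, 5 and 1 in cholinergic, 4 and 3 in GABAergic and 0 and 2 in monoaminergic neurons. With no filter on low counts 17 were higher in GABAergic and 18 lower in monoaminergic neurons. 3 were lower in glutamatergic neurons with transmitters assigned by cluster or with the homeodomain genes kept in the clustering. Leaving out 1 replicate gave 1 to 6 genes lower in glutamatergic neurons.

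Directions turned for Rx in cholinergic neurons with the homeodomain genes kept in the clustering (log2 -0.026), for mirr in cholinergic (0.31), Drgx in glutamatergic (-0.52) and tup in monoaminergic neurons (-0.12) when only neurons with 1 transmitter set were used, and for mirr (-0.42) and acj6 (0.55) in glutamatergic neurons with transmitters by cluster. None of these values passed the test, and the cause was not tested.

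Between conditions, with no filter on low counts 2 genes were called in neurons (HGTX, en), 1 in neuroblasts (ind) and 1 in glia (Optix). With the 7 libraries as samples 1 was called in neurons (en) and 1 in glia (zfh1), and with the label number as a replicate block 2 in neurons (en, hth). Whether these numbers pair the libraries is not known. The deviations of libraries with the same number correlated at 0.12, -0.10 and 0.09. These values were not compared with those of libraries with different numbers and cannot decide it. Leaving out 1 replicate gave 0 to 1 called genes in Kenyon cells and in neuroblasts. Depth limits what could be seen of rare genes, 10 of which could not be tested between transmitter groups, and of monoaminergic neurons, and 2 starvation replicates limit the comparison of conditions.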
